A study of Mus musculus with 6 samples.

Results

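Triglyceride and cholesteryl ester synthesis was followed in microglia of progranulin knockout mice through 10 genes, namely 8 acyltransferase and lipin genes of the triglyceride route, the cholesterol acyltransferase gene Soat1 and the seipin gene Bscl2. The 10 genes were chosen by name as the enzymes and the assembly factor that build neutral lipid, out of 16179 genes in the deposited table. All 10 were found. Of these, 8 stood under their current symbol and 2 under older symbols paired by the RefSeq gene table, Gpat3 as Agpat9 and Gpat4 as Agpat6.

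Every library came from the hippocampus of male mice, 10 months old, of the strain B6.129S4(FVB)-Grntm1.1Far/Mmja, which lack progranulin (gene Grn). Both groups carry this deletion, and wild-type mice were not analysed here. Each library holds about 10000 live cells that were CD11b+ and CD45lo in flow cytometry, from the pooled tissue of 2 mice, and BODIPY, a dye of neutral lipid, set apart a fraction with few lipid droplets (BODIPYlo, 3 libraries) and one rich in them (BODIPYhi, 3 libraries). The titles use the same numbers in both fractions, but no label says that a number marks a shared pool of mice. The main test took the libraries as unpaired, and would rest on the wrong spread if they were paired. A p-value here reflects the spread among these 6 libraries and nothing more.

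A fatty acid is first attached to glycerol 3-phosphate by a glycerol-3-phosphate acyltransferase (GPAT), and an acylglycerolphosphate acyltransferase (AGPAT) adds the second to give phosphatidic acid. Lipins remove the phosphate and leave diacylglycerol, which diacylglycerol acyltransferases (DGATs) turn into triglyceride, while SOAT1 joins a fatty acid to cholesterol. Triglyceride and cholesteryl ester gather between the leaflets of the endoplasmic reticulum membrane, and seipin sits where droplets bud from it. In macrophages and microglia these lipids fill the droplets that BODIPY stains.

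Reads recovered from the deposited values came to between 24982215 and 34899425 per library, and the groups overlapped in depth. All 10 listed microglia markers were detected, and their summed level was 1667812 to 1902692 normalised reads in BODIPYlo and 1482597 to 1608982 in BODIPYhi libraries, with 2 of 10 called lower. Reads of Grn were present in every library and the groups overlapped, between 416 and 990.1 normalised reads in BODIPYlo and between 468 and 1614 in BODIPYhi libraries; where they lie along the gene was not analysed here. Libraries also held transcripts of other cell types. The 8 choroid plexus and ependyma markers were all called higher in BODIPYhi libraries, with summed levels of 3724 to 18474 and 150053 to 262591, and 8 of 9 neutrophil markers were called lower, with summed levels of 31152 to 82882 and 200.2 to 2394. Of 6 tested monocyte markers 3 were lower, of 6 border macrophage markers 1 was higher, and 1 marker each of astrocytes (of 5 tested), endothelium (of 5) and neurons (of 4) was higher. No marker was called among 4 tested for oligodendrocytes, 2 for mural cells and 1 for B cells, and no T or NK cell marker reached the level for testing (Cd3e, Trbc2 and Gzma were not in the table). By summed level, markers of border macrophages, oligodendrocytes (1937 to 2419 and 2613 to 3693), endothelium, neurons and mural cells were higher in BODIPYhi libraries without overlap. The endothelial list did not rise as a whole. Slco1a4 had means of 101 and 457, while Cldn5, Pecam1, Flt1 and Ly6c1 had log2 fold changes of 0.10, -0.05, -0.55 and 0.02. In the mural sum Acta2 had means of 7.69 and 35.0, Pdgfrb 12.9 and 18.5, and Rgs5 0.69 and 0.38. The monocyte sum was lower without overlap (6400 to 13154 and 539 to 1324), and the astrocyte and B cell sums overlapped. The microglia sum given above was also lower without overlap, with a median log2 fold change of -0.20 over its 10 markers.

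None of the 10 neutral lipid synthesis genes passed the test of a difference between the fractions. By limma on log2(normalised read count + 1), 0 of 10 passed a Benjamini-Hochberg adjusted p below 0.05, while 13.3% of the 12821 tested genes did (9.79% higher and 3.52% lower in BODIPYhi). edgeR and DESeq2 on the recovered reads also called 0 of 10, against 12.8% and 16.6% of the tested genes. At an unadjusted p below 0.05, each of the 3 tools marked 2 of the 10 genes, Gpat3 and Bscl2, where limma marked 27.1%, edgeR 26.5% and DESeq2 26.6% of all tested genes. The median log2 fold change, BODIPYhi minus BODIPYlo, was -0.06 over the 10 genes and -0.01 over all tested genes, and 9 of the 10 lay within 0.25 of 0, as did 53.1% of all tested genes. For the 8 genes other than Gpat3 and Dgat2, the 95% intervals of the log2 fold change lay between -0.50 and 0.46, which is between 0.709-fold and 1.37-fold. In libraries made from sorted bulk cells, fewer cells of a type and less RNA per cell cannot be told apart.

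**Figure D1:**
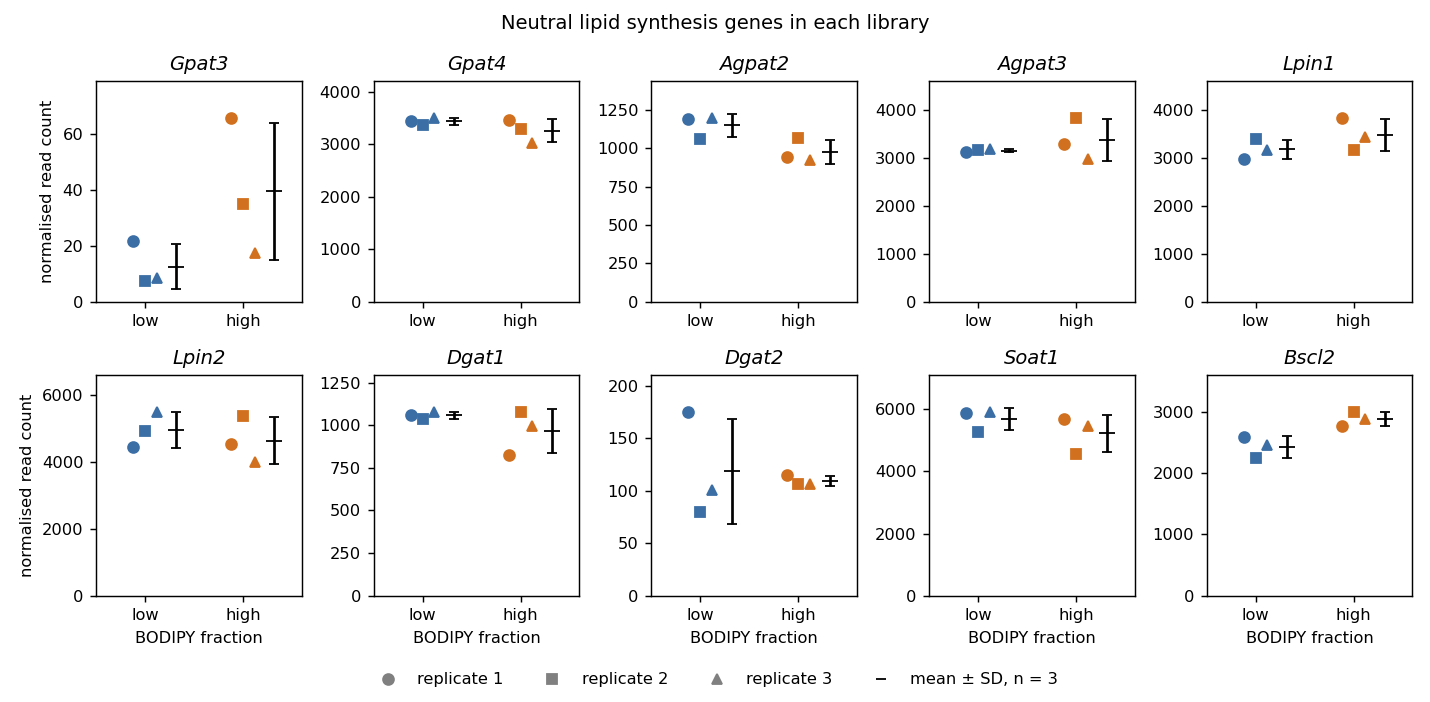
Normalised read counts (vertical axes, each from 0) of the 10 genes in the 6 libraries, with BODIPYlo in blue and BODIPYhi in orange; symbols mark the replicate number, and black bars give the mean ± SD of 3 libraries. The groups overlap in every panel but that of Bscl2, where the BODIPYhi libraries lie between 2769.9 and 3003 and the BODIPYlo ones between 2242 and 2598.

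**Figure D2:**
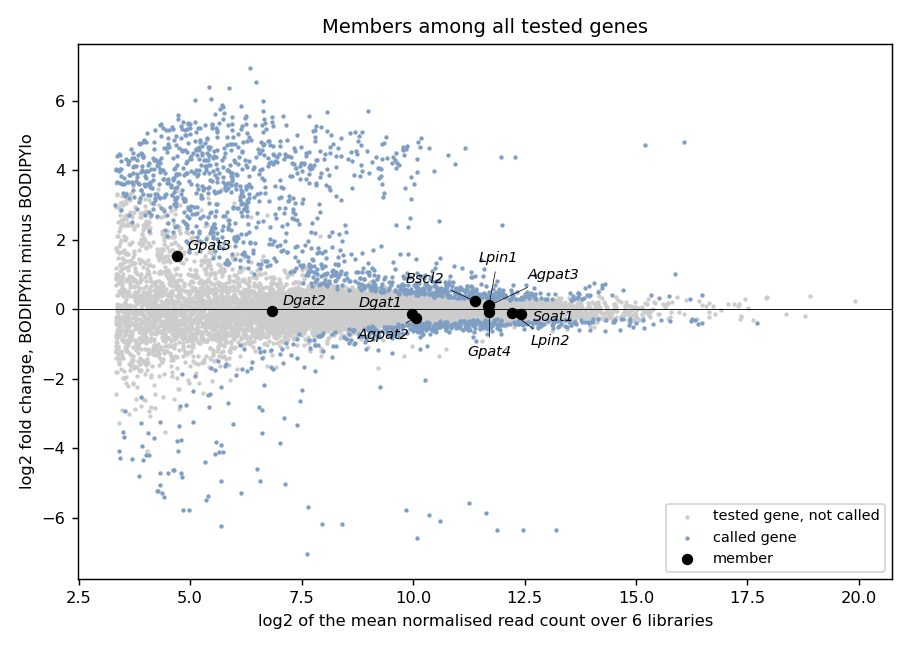
Log2 fold change (vertical axis) against the log2 of the mean normalised read count over the 6 libraries (horizontal axis) for all 12821 tested genes, with called genes in blue and the 10 neutral lipid synthesis genes in black. Of the black points, 9 lie within 0.25 of 0. Gpat3, at 1.55, was not called and lies among other genes of low level, of which some were called and some were not.

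Levels can be set against each other between genes only per length, here as normalised reads per kilobase of the union of a gene's GENCODE M21 exons. By the mean over the 6 libraries Soat1 was highest at 557 per kilobase, followed by Gpat4 (501), Agpat2 (499.6), Bscl2 (451), Agpat3 (419), Lpin2 (391), Lpin1 (345) and Dgat1 (331). Among these 8 genes the range over the libraries overlapped with that of the next gene in each case, so that neighbours in this order were not separated by the spread between libraries. Dgat2 stood apart at 36.9 per kilobase (range 25.9 to 56.7), below the lowest library of Dgat1 (271), and Gpat3 stood lowest at 7.43 (range 2.13 to 18.8). The 2 rarest genes thus each have a more abundant isoform at the same step, Gpat4 and Dgat1.

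Gpat4 (GRCm38 chromosome 8, 23171265 to 23208346) encodes a glycerol-3-phosphate acyltransferase of the endoplasmic reticulum. Its normalised read counts were 3435, 3374 and 3503 in BODIPYlo replicates 1, 2 and 3, and 3464, 3298 and 3018 in BODIPYhi replicates 1, 2 and 3. The groups overlapped, with a log2 fold change by limma of -0.08 (SE 0.09, adjusted p = 0.632).

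Gpat3 (chromosome 5, 100845713 to 100899102) encodes the other glycerol-3-phosphate acyltransferase of the endoplasmic reticulum, best known from adipocytes. Its values were 21.7, 7.46 and 8.35 in BODIPYlo and 65.9, 35.1 and 17.5 in BODIPYhi libraries. These rest on 19, 7 and 9 reads and on 70, 31 and 22 reads, so counting error alone is wide (95% exact Poisson intervals from 2.81 to 14.4 reads for the lowest library and from 54.6 to 88.4 for the highest). BODIPYlo replicate 1 lay above BODIPYhi replicate 3, so the groups overlapped although the mean was 12.5 ± 7.99 in BODIPYlo and 39.5 ± 24.5 in BODIPYhi libraries (SD, n = 3 each). The log2 fold change of 1.55 (SE 0.65, 95% interval 0.11 to 2.98) did not pass the threshold (limma adjusted p = 0.156). Exons of 4930458D05Rik on the other strand cover 30.0% of the Gpat3 exons in GENCODE M21, and exons of Gm42987 on the same strand cover 7.40%. The kits do not mark strand, so strand cannot tell apart reads on the shared bases. Neither gene has a row in the deposited table, and how reads on shared bases were counted is not given in the sources used here. Choroid plexus markers were higher in the 3 BODIPYhi libraries. Within that group, replicate 3 had the highest marker sum (262591) and the lowest Gpat3. Within the BODIPYlo group, replicate 1 had both the highest marker sum (18474) and the highest Gpat3. The part of choroid plexus transcripts in the Gpat3 values was not tested.

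Agpat2 (chromosome 2, 26593057 to 26604417) encodes the acyltransferase whose loss causes generalised lipodystrophy in humans. It had 1189, 1063 and 1199 normalised reads in BODIPYlo and 941, 1067 and 925 in BODIPYhi libraries. BODIPYhi replicate 2 stood just above BODIPYlo replicate 2, and all other BODIPYhi values lay below the BODIPYlo group (limma log2 fold change -0.24, SE 0.12, adjusted p = 0.233). Exons of Egfl7 on the other strand overlap 64 bases of Agpat2; Egfl7 itself had a mean of 19.9 and 41.8 normalised reads.

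Agpat3 (chromosome 10, 78269178 to 78352489) encodes an acyltransferase known for adding polyunsaturated fatty acids. Its BODIPYlo libraries lay close together at 3117.0, 3156 and 3176, while BODIPYhi replicates 1, 2 and 3 had 3297, 3834 and 2980.2. The BODIPYhi libraries thus fell on both sides of the BODIPYlo group (log2 fold change 0.09, SE 0.10, limma adjusted p = 0.636). Without BODIPYhi replicate 2 the log2 fold change was -0.01.

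Lpin1 (chromosome 12, 16535669 to 16610966) and Lpin2 (chromosome 17, 71182560 to 71249817) encode phosphatidate phosphatases, and lipin 1 also acts as a transcriptional coactivator in the nucleus. Lpin1 had 2990.1, 3398 and 3163 normalised reads in BODIPYlo and 3846, 3166 and 3447 in BODIPYhi libraries. Lpin2 had 4424, 4925 and 5483 in BODIPYlo and 4513, 5369 and 3991 in BODIPYhi libraries. The groups overlapped for both genes, with log2 fold changes of 0.13 for Lpin1 (SE 0.10, limma adjusted p = 0.466) and -0.10 for Lpin2 (SE 0.12, adjusted p = 0.645).

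Dgat1 (chromosome 15, 76502015 to 76511953) encodes the diacylglycerol acyltransferase that re-esterifies fatty acids at the endoplasmic reticulum. It had 1060.0, 1034 and 1078 normalised reads in BODIPYlo and 828, 1077 and 994 in BODIPYhi libraries. BODIPYhi replicate 1 was the lowest of all and BODIPYhi replicate 2 lay within the BODIPYlo group, so the groups overlapped (log2 fold change -0.14, SE 0.13, limma adjusted p = 0.545).

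Dgat2 (chromosome 7, 99153658 to 99182719) encodes the unrelated DGAT that also reaches the surface of droplets. Its values were 175, 79.9 and 100.2 in BODIPYlo and 115, 106 and 106 in BODIPYhi libraries, resting on 75 to 153 reads. BODIPYlo replicate 1 was the highest of all 6 libraries and the other BODIPYlo libraries were the lowest (log2 fold change -0.04, SE 0.32, 95% interval -0.74 to 0.67, limma adjusted p = 0.959). Without BODIPYlo replicate 1 the log2 fold change was 0.28 (adjusted p = 0.610). That library also had the highest sum of neutrophil markers, 82882 against 31152 and 31756 in BODIPYlo replicates 2 and 3. It led the BODIPYlo group in the choroid plexus, monocyte, border macrophage, microglia, astrocyte, neuron and B cell sums too, but not in the others. BODIPYhi libraries had neutrophil sums of 200.2 to 2394. The part of any of these cell types in the Dgat2 values was not tested.

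Soat1 (chromosome 1, 156424525 to 156474331) encodes the enzyme that esterifies cholesterol in macrophages and belongs to the same membrane-bound acyltransferase family as DGAT1. It had 5861, 5270.2 and 5913 normalised reads in BODIPYlo and 5675, 4549.8 and 5443 in BODIPYhi libraries. Replicate 2 was the lowest of each group and the groups overlapped (log2 fold change -0.13, SE 0.10, limma adjusted p = 0.480).

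Bscl2 (chromosome 19, 8837467 to 8848683) encodes seipin, which shapes nascent droplets and is not an enzyme. It had 2598, 2242 and 2463 normalised reads in BODIPYlo and 2769.9, 3003 and 2889.7 in BODIPYhi libraries. It was the 1 gene of the 10 in which all BODIPYhi libraries lay above all BODIPYlo ones, a pattern held by 18.0% of all tested genes (and its reverse by 13.4%). The log2 fold change was 0.25 (SE 0.10, 95% interval 0.04 to 0.46) and did not pass the threshold (limma adjusted p = 0.120, edgeR 0.137, DESeq2 0.0953). Exons of Gng3 on the other strand overlap 6.75% of the Bscl2 exons, and Gng3 had at most 5.65 normalised reads in any library. Exons of AC129217.1 on the same strand overlap 4.05%, and this gene has no row in the deposited table.

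Ratios between paired enzymes within a library would not depend on how the libraries were scaled, but for the 1 added to each value after scaling. That matters at low values such as those of Gpat3, whose difference in log2 ratio to Gpat4 was 1.36 with 5 added. Of 5 such ratios, 1 separated the groups. Levels, which are a different measure, did not overlap in 31.3% of all tested genes. Agpat2 over Agpat3 was -1.39, -1.57 and -1.40 on the log2 scale in BODIPYlo and -1.81, -1.84 and -1.69 in BODIPYhi libraries, a difference of -0.33. The exact two-sided permutation p was 0.1, the smallest that 3 against 3 libraries allow, and 0.5 after Benjamini-Hochberg adjustment over the 5 ratios. The log2 ratios of Gpat3 to Gpat4, Lpin1 to Lpin2, Dgat2 to Dgat1 and Soat1 to Dgat1 differed by 1.62, 0.23, 0.10 and 0.01, with overlapping groups and exact permutation p of 0.2, 0.3, 0.8 and 1.0.

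The summed level per kilobase at each step, over the members and the other genes of the same reaction, also overlapped between the fractions. It was 738 ± 16.8 in BODIPYlo and 688 ± 48.0 in BODIPYhi libraries for the GPAT step, 1479 ± 58.1 and 1499.7 ± 71.0 for the AGPAT step, 734 ± 54.3 and 741 ± 46.6 for lipins, 384 ± 19.7 and 352 ± 40.0 for DGATs, and 605 ± 43.8 and 556 ± 60.1 for the cholesterol acyltransferases (SD, n = 3 each). Gpat4 made up 69.7% ± 1.50 of the GPAT level in BODIPYlo and 70.9% ± 0.161 in BODIPYhi libraries, and Dgat1 made up 90.1% ± 3.69 and 89.8% ± 1.67 of the DGAT level. Soat1 held 96.0% ± 1.06 and 95.9% ± 1.02 beside its isoform Soat2. The lipin level was shared between Lpin1 (44.9% ± 2.39 and 48.8% ± 5.25) and Lpin2 (55.0% ± 2.44 and 50.9% ± 5.51). Within the AGPAT step the share of Agpat2 was 36.5% ± 1.18 in BODIPYlo and 30.6% ± 1.18 in BODIPYhi libraries and that of Agpat4 was 5.95% ± 0.667 and 9.55% ± 1.86. Within the GPAT step the share of Gpam was 28.7% ± 1.47 and 26.7% ± 0.278. These were the 3 of 17 shares in which the groups did not overlap, while 31.3% of all tested genes had levels that did not overlap. Shares within a step move against each other, so they are not independent, and a share is not the same measure as a level. Shares are given as a description, without a test.

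**Figure D3:**
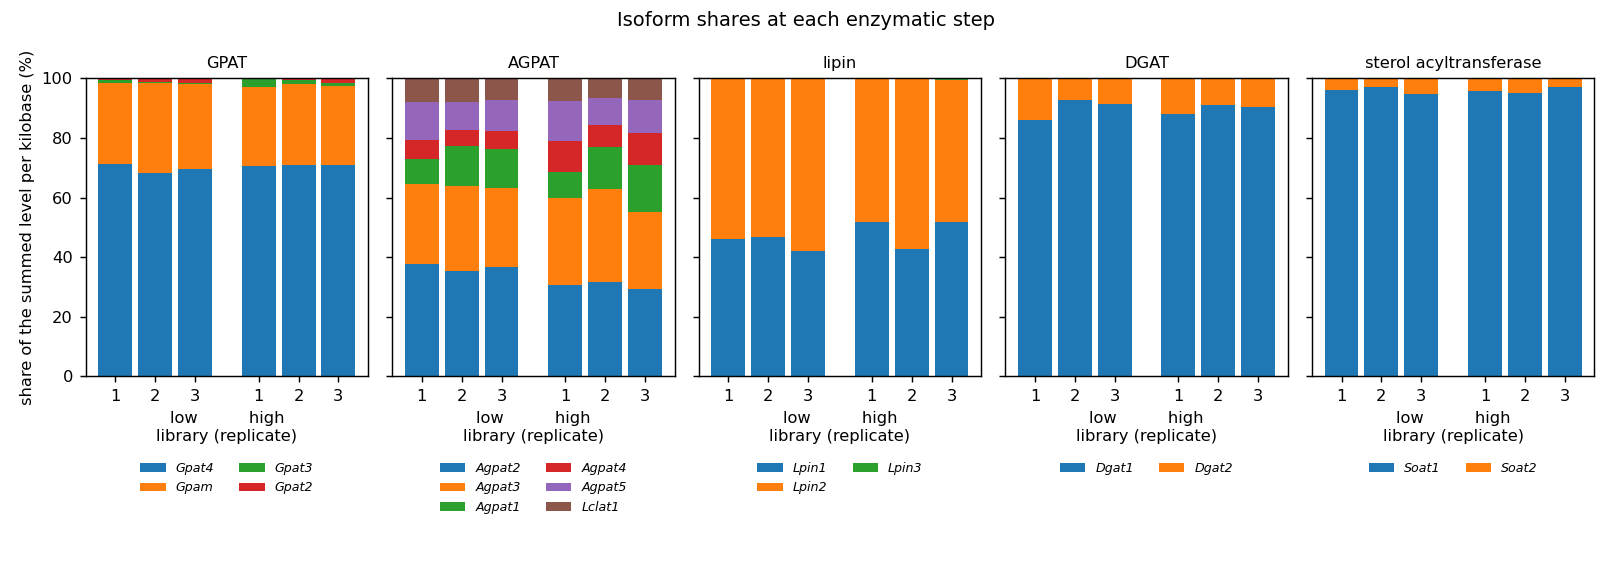
Share of the summed level per kilobase (vertical axis, percent) that each isoform holds at 5 steps, one bar per library, with BODIPYlo replicates 1 to 3 on the left and BODIPYhi replicates 1 to 3 on the right of each panel. Gpat4, Dgat1 and Soat1 dominate their steps in all 6 libraries, both lipins share theirs, and the AGPAT step is spread over 6 genes.

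Among 30 other genes of glycerolipid and sterol ester synthesis, 29 were in the table and 25 were tested, of which 2 were called higher and 2 lower in BODIPYhi libraries and 21 were not called (16.0% called, against 13.3% of all tested genes). Their median log2 fold change was -0.02, beside -0.01 over all tested genes. DESeq2 called 4 and edgeR 5 of them. Of the 25 tested, 3 were higher and 4 lower in BODIPYhi libraries without overlap, beside 18.0% and 13.4% of all tested genes.

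Gpd1, the cytosolic dehydrogenase that makes glycerol 3-phosphate from a glycolysis intermediate, had 473, 426 and 403 normalised reads in BODIPYlo and 739.6, 704 and 663 in BODIPYhi libraries. All BODIPYhi values lay above the BODIPYlo ones, and the log2 fold change was 0.70 (SE 0.14, limma adjusted p = 0.00815). Its relative Gpd1l, the most abundant gene of that group, was not called (log2 fold change 0.11, SE 0.10, limma adjusted p = 0.542). The 8 choroid plexus and ependyma markers, all called, were higher in these BODIPYhi libraries too, with a median log2 fold change of 4.66, and their part in the Gpd1 values was not tested.

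Agpat4, an acyltransferase best known from brain, had 263, 200.3 and 251 normalised reads in BODIPYlo and 407, 316 and 431 in BODIPYhi libraries. The groups did not overlap and the log2 fold change was 0.69 (SE 0.20, limma adjusted p = 0.0435). The call was lost on leaving out any single library but BODIPYhi replicate 2, with an adjusted p of up to 0.166, and with no filter on low values (0.0525). The same markers were higher beside Agpat4, and their part in its values was not tested either.

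Cept1, which joins choline or ethanolamine phosphate to diacylglycerol and so draws it into phospholipid, fell. It had 4352, 4439 and 4643 normalised reads in BODIPYlo and 3181, 3460.2 and 3424 in BODIPYhi libraries. No value of one group reached the other, and the log2 fold change was -0.42 (SE 0.09, limma adjusted p = 0.00864). Neutrophil markers (8 of 9) and microglia markers (2 of 10) were also called lower in BODIPYhi libraries, and their part in the Cept1 values was not tested.

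Mogat2, a monoacylglycerol acyltransferase that makes diacylglycerol by a route without phosphatidic acid, had 57.2, 42.6 and 27.8 normalised reads in BODIPYlo and no read in any BODIPYhi library. With reads pooled over each group (120 and 0) and a floor of 3 reads over the group, it was at least 44.3-fold lower in BODIPYhi libraries (limma adjusted p = 0.00187). Neutrophil markers were lower in the same libraries, by a median log2 fold change of -5.91 over the 9 tested, and their part in the Mogat2 values was not tested.

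In the other groups, the tested genes with the highest normalised read count, not set per kilobase, were not called. Gpam, the GPAT of the mitochondrial outer membrane, had a log2 fold change of -0.21 (limma adjusted p = 0.269). Its groups did not overlap, with 1307 to 1484 normalised reads in BODIPYlo and 1132 to 1290 in BODIPYhi libraries. By limma, the log2 fold change was 0.05 for Agpat5 (adjusted p = 0.870) and 0.01 for Plpp1, a lipid phosphate phosphatase (adjusted p = 0.970). It was -0.07 for Soat2 (limma adjusted p = 0.929) and -0.18 for Fitm2, a droplet assembly protein (limma adjusted p = 0.636). Pcyt1b, an enzyme of phosphatidylcholine synthesis named after its values were seen, was the fifth gene called by edgeR (adjusted p = 0.0490, limma 0.187). It had no read in BODIPYlo libraries and 36.7, 0 and 24.6 normalised reads in BODIPYhi replicates 1, 2 and 3. The 4 genes below the level for testing were Lpin3, Mogat1, Lcat and Fitm1, with at most 17.0 normalised reads in any library. Mogat1 and Lcat, described outside the naming rule given below, were higher in BODIPYhi libraries without overlap, as were 18.0% of all tested genes. Mogat1 was read only in the BODIPYhi libraries, at 7.54, 14.7 and 9.53, resting on 8, 13 and 12 reads. Lcat had 10 reads over the BODIPYlo and 36 over the BODIPYhi libraries. Choroid plexus and ependyma markers were higher in these libraries too, and their part in these values was not tested.

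**Figure D4:**
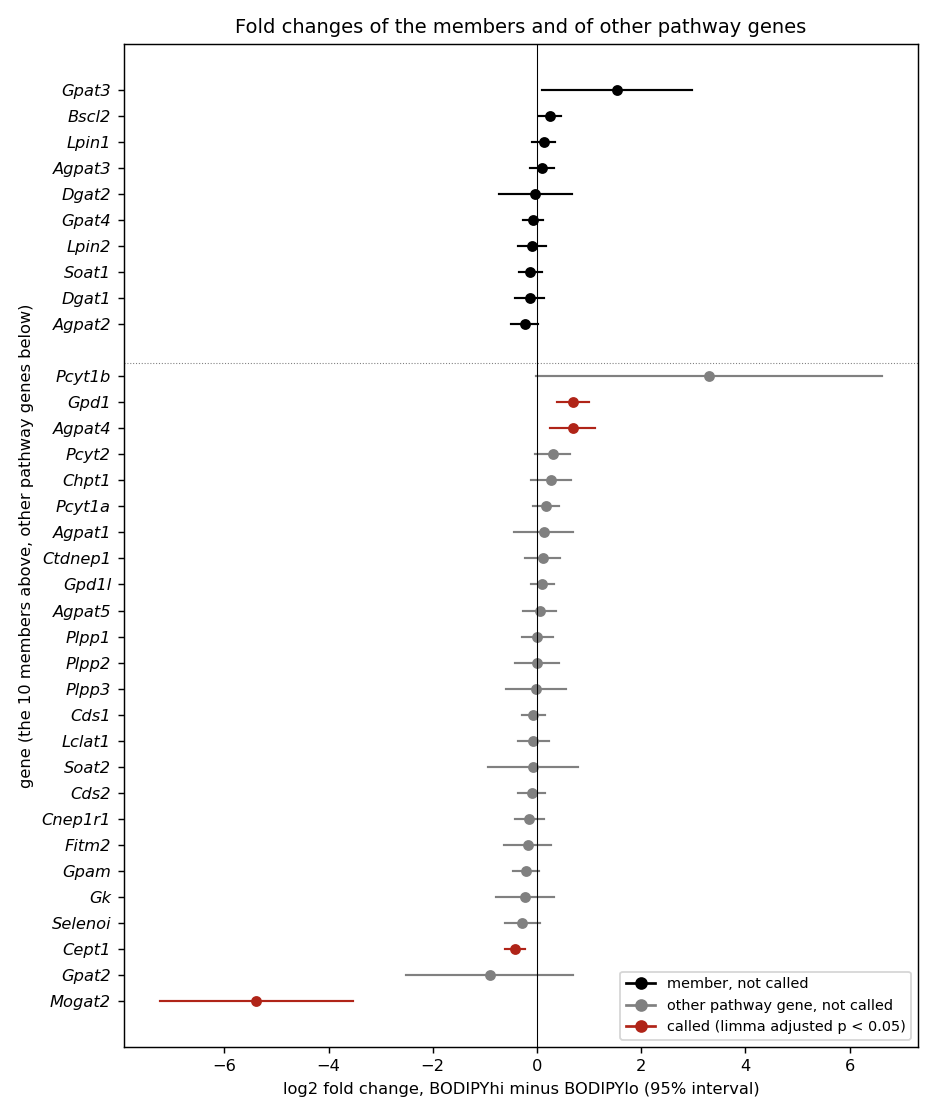
Log2 fold change between the fractions (horizontal axis, points) with 95% intervals (lines) for the 10 neutral lipid synthesis genes (top, black) and 25 other tested genes of the pathway (below the dotted line), with genes called by limma in red. The red points are Gpd1 (0.70), Agpat4 (0.69), Cept1 (-0.42) and Mogat2, whose fitted value depends on the pseudocount since its BODIPYhi libraries are at 0; none of the 10 genes at the top is red.

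**Figure D5:**
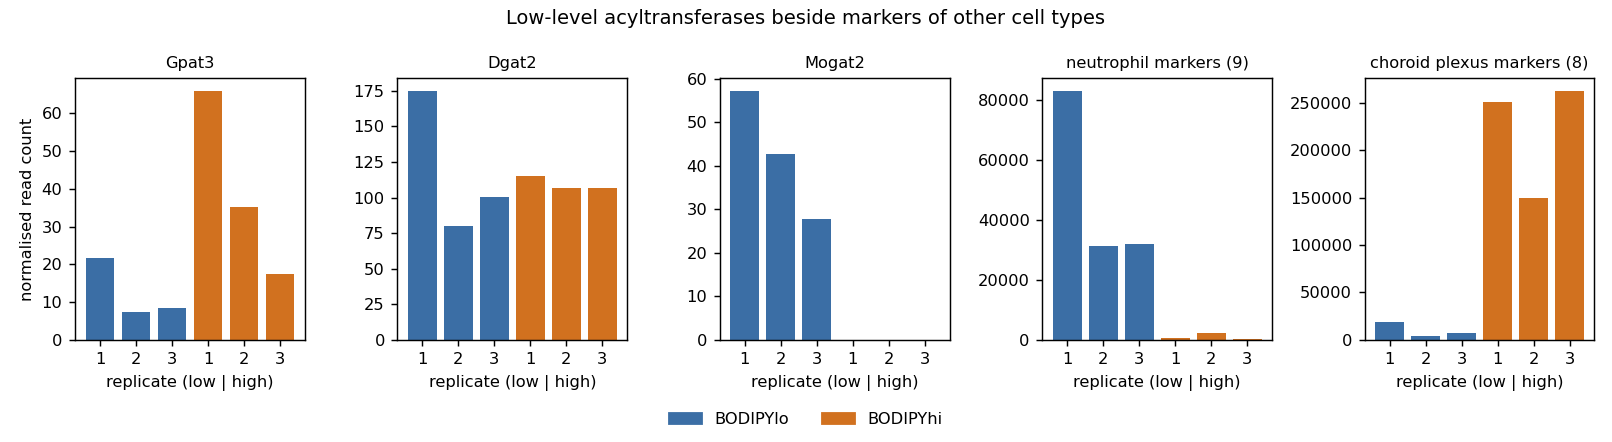
Normalised read counts (vertical axes, each from 0) in the 6 libraries for Gpat3, Dgat2 and Mogat2 and for the summed markers of neutrophils (9 genes) and of choroid plexus and ependyma (8 genes), with BODIPYlo in blue and BODIPYhi in orange. BODIPYlo replicate 1 is the highest BODIPYlo library in all 5 panels, and the Mogat2 bars of the BODIPYhi libraries are at 0.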

How the data were processed

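RNA sequencing libraries of 6 samples, 3 for each BODIPY fraction, were compared. Per the series' design text and the submitters' processing notes, reads were mapped to mm10 (the notes list mm9 beside it) with STAR 2.5.3a, which also counted reads per gene, FastQC 0.11.4 was used, and the authors' comparison used DESeq2. The gene annotation is not given in the sources used here. The table deposited by the authors holds a signal per gene and library, the read count over that library's size factor. Every value was a whole multiple of its library's smallest value (100% at a tolerance of 0.01 read), so whole reads were recovered.

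A two-sided test with a trended variance (limma 3.58.1, R 4.3.3) was fitted to log2(value + 1), without a block, in the 12821 genes whose mean reached 10, and p-values were adjusted over all of them. All 10 genes passed that filter. Fold changes are on this scale, which understates changes of low values. edgeR 4.0.16 and DESeq2 1.42.0 on recovered reads, pseudocounts of 0.5 and 5, no filter, TMM scaling, robust variance, a replicate block and leaving out each library were the alternatives. The fit was tested on simulated data. Coordinates and exon lengths come from GENCODE M21 (GRCm38, the assembly of mm10). Intervals and floors of reads cover counting error only, since amplified reads are not independent molecules. Sequences are not shown, since no result rests on one.

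The genes and lists were chosen with earlier results of these data known. By the naming rule, the 10 genes, Grn, every called gene of the pathway list and the most abundant tested gene of each of its groups (by normalised read count) are named. Cell type markers formed 12 lists.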

Additional observations from a re-analysis of the deposited data

How the results depend on the processing

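Calls among the 10 genes numbered 0 under all 14 alternatives, and their lowest adjusted p was 0.0927, that of Gpat3 with the replicate block (its range was 0.0927 to 0.363, and that of Bscl2 was 0.0953 to 0.385). Of 140 fold changes recomputed, 138 kept their direction; the 2 others were Agpat3 (-0.0068 without BODIPYhi replicate 2) and Dgat2 (0.28 without BODIPYlo replicate 1), and with 1 library left out they ranged from -0.0068 to 0.17 and from -0.28 to 0.28. The cause was not tested. The 5 ratios between enzymes moved by less than the larger of their 2 group SDs under every alternative run, though some by more than the smaller one. With 1 library left out the difference in Dgat2 to Dgat1 ranged from -0.12 to 0.42 and that in Soat1 to Dgat1 from -0.16 to 0.19, both changing sign, while Lpin1 to Lpin2 ranged from 0.13 to 0.41, Gpat3 to Gpat4 from 1.21 to 2.07 and Agpat2 to Agpat3 from -0.38 to -0.29.

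Over all tested genes, 1255 were higher and 451 lower in BODIPYhi libraries. With 1 library left out the rises ranged from 689 (without BODIPYhi replicate 3) to 1295 and the falls from 151 (without BODIPYlo replicate 3) to 523. The falls were 180 without BODIPYlo replicate 2 and 219 without BODIPYhi replicate 3. With the library number as a replicate block the falls were 760 and the rises 1451. Deviations from the group means correlated at 0.11, 0.14 and 0.07 between libraries numbered 1, 2 and 3, and every library correlated best with its own number, which is a hint from the data only, since no label says that a number marks a shared pool. The block gave Gpat3 and Bscl2 an adjusted p of 0.0927 and 0.108, Agpat4 0.0246 and Gpd1 0.00683. TMM scaling moved the median fold change by -0.01. Gpat3 rests on the fewest reads of the 10 genes, and its counting intervals in BODIPYhi replicates 1 and 3 (54.6 to 88.4 and 13.8 to 33.3 reads) do not overlap.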
